A study of Mus musculus with 15 samples.

Results

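The 10 genes described here are secreted Wnt inhibitors and the intracellular end of the canonical Wnt pathway: Sfrp1, Sfrp2, Wif1, Dkk3, Axin2, Lef1, Tcf7, Tcf7l1, Tcf7l2 and Ctnnb1. They were chosen by name, with earlier results of these data known, out of the 21889 genes of the gene count tables. All 10 were found by Ensembl identifier and passed the filter on low counts. RNA-seq of poly(A) RNA was made from mouse cerebellum in 5 groups of 3 libraries. Of these, 4 groups were granule neuron precursors, which proliferate in the outer layer of the developing cerebellum and become its granule neurons. They were collected from embryos at E15.5, labelled Math1-GFP for genotype, and from WT mice on postnatal days 1, 7 and 14 (P1, P7 and P14). The fifth group was medulloblastoma cells (MB), from tumours of the cerebellum in Ptch1 heterozygous mice, for which no age is given. The ages were profiled by the study to find genes that change as precursors differentiate, and the tumours to set beside the P7 precursors. Ptch1 is the inhibitory receptor of the Sonic hedgehog pathway, and loss of its function drives this tumour. Both kinds of cell were purified by Percoll fractionation, which enriches by density and does not sort by a marker. Because E15.5 differs from the other ages in its genotype label too, age and genotype cannot be told apart in comparisons with it. The labels do not say that libraries of a group came from separate animals or tumours, so p-values measure the spread between these libraries, which may be technical.

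In canonical Wnt signalling, a Wnt ligand binds a Frizzled receptor and an Lrp co-receptor, the destruction complex around Axin and Apc is held back, and β-catenin accumulates and enters the nucleus. There it binds the Tcf/Lef transcription factors, which otherwise sit on their targets with Groucho/Tle co-repressors. Secreted inhibitors act outside the cell, some of them by binding the ligands. Axin2 and Lef1 are themselves well-known targets of the pathway, so that Axin2 mRNA is often used as its readout. In medulloblastoma, activating mutations of the β-catenin gene mark a tumour class that is distinct from the Sonic hedgehog class to which Ptch1 tumours belong.

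The libraries held 12597472 to 43443132 counts in genes, and levels are given in CPM, the read count scaled to library size after TMM, edgeR's correction for composition. The summed level of 7 granule precursor markers was 2490 to 3750 CPM in E15.5, 3950 to 4660 CPM in P1, 5210 to 6660 CPM in P7, 3490 to 3970 CPM in P14 and 6310 to 7180 CPM in MB, and none of the 7 was at 0 in a group. These 7 genes did not all move together. Atoh1 was at 124 to 138 CPM in E15.5, 10.9 to 13.1 CPM in P14 and 236 to 322 CPM in MB. Zic1 was at 883 to 1320 CPM in E15.5, 1830 to 1990 CPM in P14 and 1160 to 1700 CPM in MB. In CPM, 6 granule neuron markers summed to 953 to 1500 in E15.5, 1200 to 3040 in P1 and 3420 to 3630 in P7. They summed to 3740 to 4500 CPM in P14 and 969 to 1490 CPM in MB. Other cell types also left RNA in the libraries: 6 endothelial markers summed to 16.3 to 36.3 CPM in E15.5, 366 to 565 CPM in P1, 273 to 333 CPM in P7, 698 to 727 CPM in P14 and 25.5 to 37.2 CPM in MB. Sums of glial lists were larger. In CPM, 6 astroglia markers summed to 122 to 356 in E15.5, 2420 to 3660 in P1 and 1850 to 4070 in P7. They summed to 3220 to 4200 CPM in P14 and 766 to 1310 CPM in MB. For 7 oligodendrocyte markers the sums were 67.7 to 102 in E15.5, 571 to 3500 in P1 and 860 to 1680 in P7. They were 5330 to 5820 CPM in P14 and 622 to 946 CPM in MB. Their part in the results was not tested. A pair of libraries, E15.5 replicate 1 and P1 replicate 3, stood apart from their groups. In E15.5 replicate 1, Tcf7l2 was at 81.7 CPM against at most 9.01 CPM in the other E15.5 libraries. In P1 replicate 3, 6 granule neuron markers summed to 3040 CPM against 1200 and 1240 CPM in the other P1 libraries, and 7 oligodendrocyte markers to 3500 CPM against 571 and 908 CPM. Results that rest on either are given with and without both. Other libraries also differed from their groups, and these were left out only 1 at a time. In P1 replicate 2, 6 choroid plexus and ependymal markers summed to 10300 CPM, against 421 and 3930 CPM in P1 replicates 1 and 3. In MB replicate 1, Gli1 was at 208 CPM against 781 and 651 CPM in MB replicates 2 and 3. There 6 microglia and macrophage markers summed to 374 CPM, against 159 and 133 CPM. In bulk RNA, fewer cells of a type and less RNA per cell cannot be told apart.

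More of these genes were called in the comparisons of MB with P7 and P14 than in those between ages, and MB was tested against no other age. A gene was called changed at a Benjamini-Hochberg adjusted p (FDR) under 0.05 in edgeR's quasi-likelihood test over all 15259 genes tested. Between MB and P7, 7 of the 10 genes were called, where 34.5% of all genes tested were called. Of the 7, 2 were higher in MB (13.7% of all genes) and 5 lower (20.7%). Between MB and P14, 8 of the 10 were called, where 50% of all genes were called. Of the 8, 3 were higher in MB (22.9% of all genes) and 5 lower (27.2%). Both comparisons use the same MB libraries. The median size of the log2 change over the 10 genes was 1.72 between MB and P7, against 0.492 over all genes, and 1.70 between MB and P14, against 0.682. Among the normal ages, 4 comparisons were made. Between E15.5 and P1, 3 of 10 were called (46.3% of all genes), all 3 higher in P1 (25.4% of all genes were higher and 20.9% lower). Between P1 and P7, 1 of 10 was called (3.15% of all genes), which was higher in P7 (1.4%, with 1.74% lower). Between P7 and P14, 2 of 10 were called (10.3% of all genes), 1 higher in P14 (5.81%) and 1 lower (4.51%). Between P1 and P14, 2 of 10 were called (8.94% of all genes), 1 higher in P14 (3.63%) and 1 lower (5.31%). A test for any difference among the 4 ages called 6 of the 10 genes, where it called 55.7% of all genes.

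**Figure D1:**
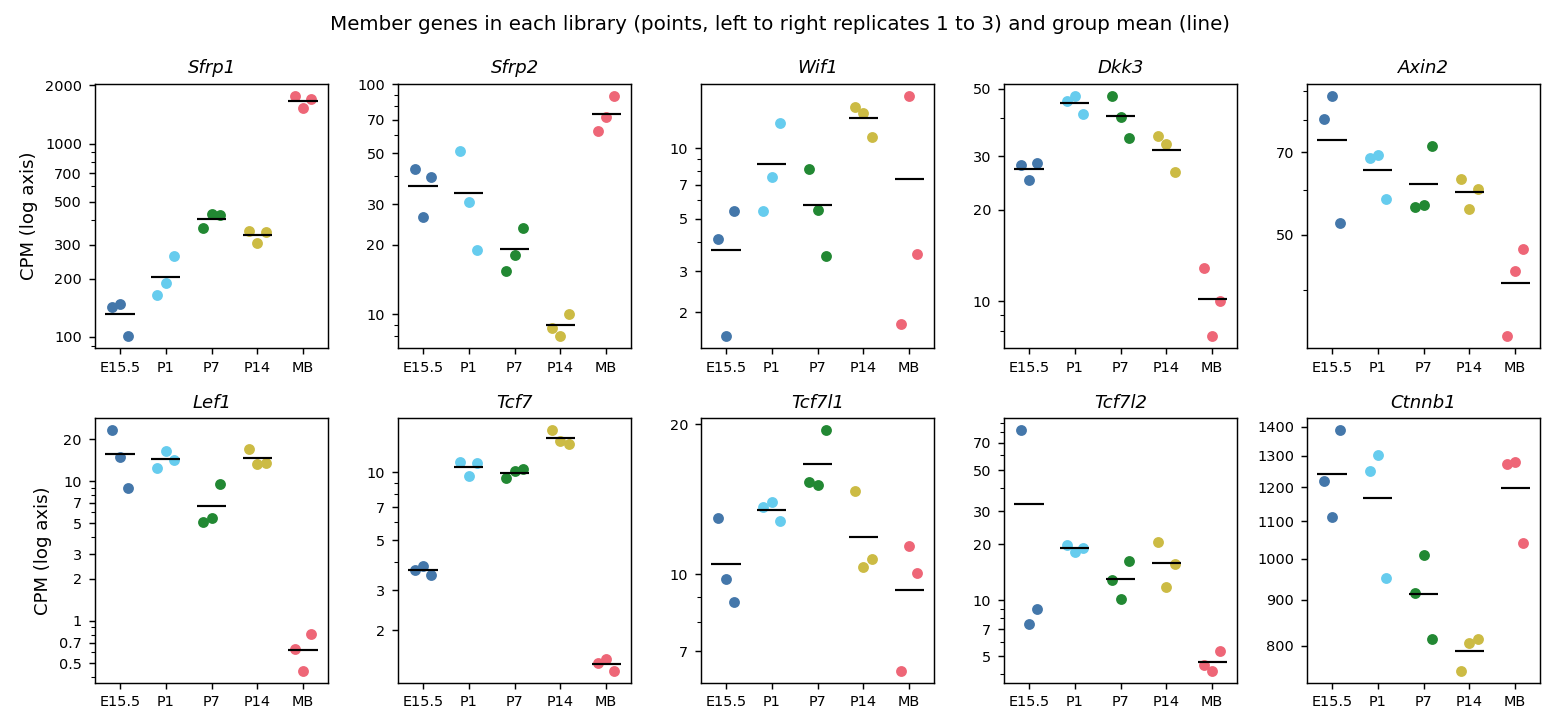
Level of each of the 10 genes in every library, in CPM on a log axis that differs between panels. Points are libraries, ordered by replicate number within E15.5, P1, P7, P14 and MB, and lines are group means. The 3 MB libraries lie above all 12 precursor libraries for Sfrp1 and Sfrp2 and below all 12 for Dkk3, Axin2, Lef1, Tcf7 and Tcf7l2.

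Sfrp1 encodes a secreted protein with a Frizzled-like domain that binds Wnt ligands outside the cell. The Sfrp1 transcript lies on chromosome 8 (24521974 to 24560104, + strand, mm9). Sfrp1 was at 143, 148 and 101 CPM in E15.5 replicates 1 to 3, at 163, 189 and 261 CPM in P1, at 366, 431 and 426 CPM in P7, at 355, 304 and 347 CPM in P14, and at 1771, 1526 and 1697 CPM in MB. The groups did not overlap at any step of this order, E15.5, P1, P14, P7 and MB from low to high, although P14 and P7 were not called different (log2 change -0.28, FDR 0.383). MB stood far above every normal library, of which the highest held 431 CPM. The MB level was 4.08-fold that of P7 (log2 2.03, SE 0.21, FDR 2.97e-06) and 4.97-fold that of P14 (log2 2.31, SE 0.21, FDR 6.34e-07). Across the alternative settings and left-out libraries the log2 change lay between 1.98 and 2.09 against P7 and between 2.24 and 2.37 against P14, and it was called in each.

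Sfrp1 rose with age before P14. The increase from E15.5 to P1 was 1.57-fold (log2 0.65, SE 0.20, FDR 0.0158) and that from P1 to P7 was 1.99-fold (log2 0.99, SE 0.20, FDR 0.0214). From P1 to P14 it was 1.64-fold (log2 0.71, SE 0.20, FDR 0.0410). These developmental calls were less firm than those in MB. Without E15.5 replicate 1 and P1 replicate 3, the step from E15.5 to P1 was 0.50 on the log2 scale (FDR 0.103), while the step from P1 to P7 was 1.21 (FDR 0.0121) and the difference between P1 and P14 was 0.93 (FDR 0.0108). The first step was also not called without E15.5 replicate 3 (FDR 0.0803) or without P1 replicate 3 (FDR 0.0959), with only the 2 groups compared (FDR 0.0551), or when differences in how the gene tables were counted were held fixed (log2 0.47 and FDR 0.193 in libraries counted alike, log2 0.61 and FDR 0.0671 with the counting set as a term). The call from P1 to P7 was lost without P1 replicate 1, P1 replicate 2, P7 replicate 2 or P7 replicate 3, and that from P1 to P14 without P1 replicate 1, P1 replicate 2 or any P14 library.

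Sfrp2, a close relative of Sfrp1 with the same mode of action, ran the other way with age and the same way in MB. The Sfrp2 transcript lies on chromosome 3 (83570243 to 83578238, + strand, mm9). Sfrp2 was at 42.7, 26.3 and 39.6 CPM in E15.5, at 51.2, 30.6 and 19.1 CPM in P1, at 15.4, 18.1 and 23.7 CPM in P7, at 8.73, 8.02 and 10.03 CPM in P14, and at 62.4, 71.9 and 89.1 CPM in MB. The P14 libraries were below all others and the MB libraries above all others, whereas P1 overlapped both E15.5 and P7. Sfrp2 was 3.90-fold higher in MB than in P7 (log2 1.96, SE 0.31, FDR 0.000167) and 8.34-fold higher than in P14 (log2 3.06, SE 0.33, FDR 2.81e-06), and it was called in every alternative run. Between P1 and P14 it decreased by 3.77-fold (log2 -1.91, SE 0.31, FDR 0.00359), a call kept in each alternative. Without the libraries that stood apart the log2 change was -2.20 (FDR 0.000397). The decrease from P7 to P14 was 2.14-fold (log2 -1.10, SE 0.31, FDR 0.0358), a call lost when P7 replicate 2, P7 replicate 3 or any P14 library was left out. The step from P1 to P7 was not called (log2 -0.82, FDR 0.150), but was called without the libraries that stood apart (log2 -1.10, FDR 0.0441).

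The balance between these relatives was compared within libraries, as a description. The ratio of Sfrp1 CPM to Sfrp2 CPM, with no scaling for length, was 3.84 ± 1.59 at E15.5. It was 7.69 ± 5.42 in the P1 libraries, with 3.19 and 6.18 in replicates 1 and 2 and 13.7 in replicate 3, the library that stood apart. The ratio was 21.8 ± 3.32 in those of P7, 37.7 ± 3 in those of P14 and 22.9 ± 4.88 for MB (mean ± SD, n = 3 libraries each). The MB ratios, from 19.1 to 28.4, overlapped those of P7, from 18 to 23.8, with both genes at higher levels in MB.

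Wif1 encodes an unrelated secreted protein that binds Wnt ligands through its WIF domain. The Wif1 transcript lies on chromosome 10 (120471016 to 120537706, + strand, mm9). Wif1 was at 4.10, 1.59 and 5.38 CPM in E15.5, at 5.41, 7.52 and 12.8 CPM in P1, at 8.18, 5.46 and 3.47 CPM in P7, at 14.9, 14.1 and 11.2 CPM in P14, and at 1.79, 16.7 and 3.56 CPM in MB. MB replicate 2 held the highest value of all 15 libraries and MB replicate 1 nearly the lowest, and the MB libraries overlapped every other group. Wif1 was not called in any comparison (for MB against P7, log2 0.38, SE 0.63, FDR 0.691, and for MB against P14, log2 -0.85, SE 0.63, FDR 0.277). Without MB replicate 2, the log2 change was -1.10 against P7 and -2.32 against P14, and the latter was called (FDR 0.00302).

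Dkk3 belongs to the Dickkopf family of secreted glycoproteins by sequence, but unlike Dkk1 it is not an established ligand of the Lrp co-receptors. The Dkk3 transcript lies on chromosome 7 (119259533 to 119302571, - strand, mm9). Dkk3 was at 28.0, 25.0 and 28.5 CPM in E15.5, at 45.7, 47.5 and 41.4 CPM in P1, at 47.3, 40.4 and 34.4 CPM in P7, at 34.9, 33.0 and 26.5 CPM in P14, and at 12.9, 7.67 and 10.01 CPM in MB. All 3 MB libraries were below the 12 precursor libraries, of which the lowest held 25.0 CPM. Dkk3 was 4.001-fold lower in MB than in P7 (log2 -2.00, SE 0.21, FDR 3.63e-06) and 3.10-fold lower than in P14 (log2 -1.63, SE 0.21, FDR 1.41e-05), and each alternative kept both calls. From E15.5 to P1 it rose 1.65-fold (log2 0.72, SE 0.20, FDR 0.00881), and the rise without the libraries that stood apart was 0.80 on the log2 scale (FDR 0.0331). The 4 secreted inhibitors thus moved in different directions in MB, with Sfrp1 and Sfrp2 higher, Dkk3 lower and Wif1 too variable to call.

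**Figure D2:**
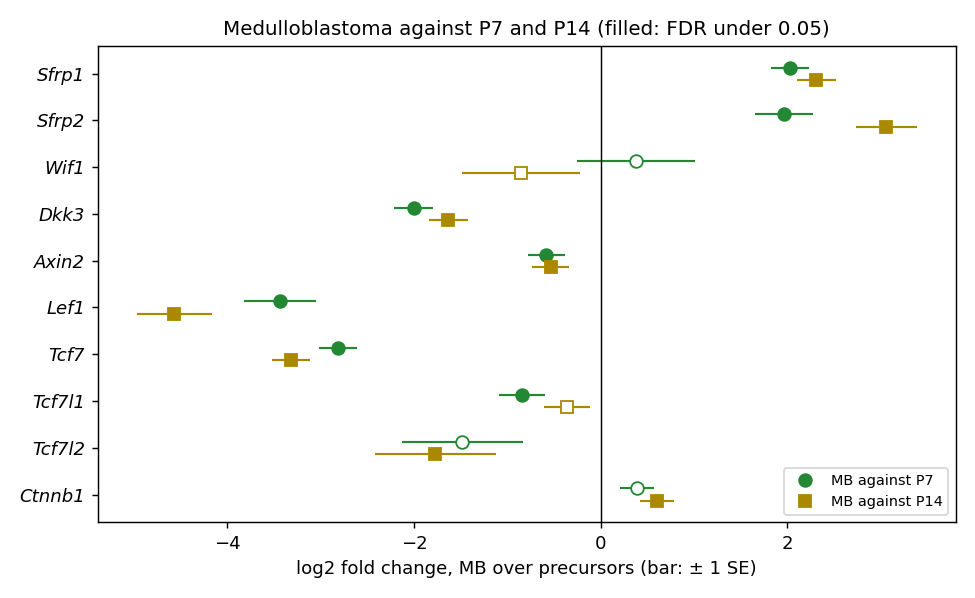
Fitted log2 fold change of each gene in MB over P7 (circles) and over P14 (squares), with bars of 1 standard error from edgeR's quasi-likelihood fit and filled symbols at FDR under 0.05. Sfrp1 and Sfrp2 lie to the right of 0 and Lef1, Tcf7 and Dkk3 to the left by more than 1.5 in both comparisons.

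Axin2 encodes a scaffold of the destruction complex and is a direct feedback target of β-catenin. The Axin2 transcript lies on chromosome 11 (108781663 to 108812097, + strand, mm9). Axin2 was at 80.3, 88.3 and 52.4 CPM in E15.5, at 68.4, 69.3 and 57.9 CPM in P1, at 56.1, 56.4 and 71.9 CPM in P7, at 62.9, 55.6 and 60.4 CPM in P14, and at 33.1, 43.1 and 47.1 CPM in MB. All 4 ages overlapped each other, and the test for any difference among them did not call Axin2 (FDR 0.508). The MB libraries were below all 12 others. The decrease was 1.495-fold against P7 (log2 -0.58, SE 0.20, FDR 0.0360) and similar in size against P14 (log2 -0.54, SE 0.20, FDR 0.0378). Both are close to the threshold. Leaving out MB replicate 1 or MB replicate 2 ended each call, as did P7 replicate 1 or P7 replicate 3 for the comparison with P7 and any P14 library for that with P14.

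Lef1 encodes the Tcf/Lef factor that most often acts as an activator with β-catenin. The Lef1 transcript lies on chromosome 3 (130813389 to 130927274, + strand, mm9). Lef1 was at 23.1, 14.9 and 8.93 CPM in E15.5, at 12.5, 16.6 and 14.2 CPM in P1, at 5.09, 5.46 and 9.55 CPM in P7, and at 17.0, 13.4 and 13.6 CPM in P14. In MB it was at 0.635, 0.440 and 0.801 CPM, from 16, 18 and 20 counts. Lef1 was lower in each MB library than in any precursor library, the lowest of which held 5.09 CPM. The decrease was 10.8-fold against P7 (log2 -3.44, SE 0.39, FDR 8.03e-06) and 23.7-fold against P14 (log2 -4.57, SE 0.40, FDR 4.94e-07), and across the alternatives the log2 change against P7 lay between -3.65 and -3.10.

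P7 had the lowest mean of Lef1 among the normal ages, although its highest library overlapped E15.5. Its level rose 2.19-fold from P7 to P14 (log2 1.13, SE 0.34, FDR 0.0445), with no overlap between the libraries. The call was lost without P7 replicate 1, without P7 replicate 2 and without any P14 library, with log2 changes of 0.94 to 1.19, and kept without P7 replicate 3 (log2 1.47). The step down from P1 to P7 was of similar size and also without overlap, but was not called (log2 -1.11, SE 0.34, FDR 0.0824). DESeq2 called it (log2 -1.13, FDR 0.0215), and edgeR without the libraries that stood apart did not (log2 -1.12, FDR 0.0823). The summed endothelial markers moved with Lef1 over these ages, at 366 to 565 CPM in P1, 273 to 333 CPM in P7 and 698 to 727 CPM in P14, also without overlap, and their part in the Lef1 differences was not tested.

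Since Axin2 and Lef1 are direct targets of the pathway, the DNA before their start sites is shown, 250 bases up to the start, 5′ to 3′ on the gene's strand, from RefSeq on GRCm38.p6. Capitals mark a match on either strand to the core letters that Tcf/Lef factors bind. The strings searched were CTTTGAA and also CTTTGAT, together with CTTTGTA and with CTTTGTT, which cannot overlap one another on a strand.
Axin2 start (chr11:108920099-108920348, + strand): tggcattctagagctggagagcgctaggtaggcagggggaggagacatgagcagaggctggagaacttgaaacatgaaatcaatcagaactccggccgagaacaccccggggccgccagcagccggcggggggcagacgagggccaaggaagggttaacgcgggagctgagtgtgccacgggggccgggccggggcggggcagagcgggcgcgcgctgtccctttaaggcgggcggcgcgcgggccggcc
Lef1 start 1 (chr3:131110047-131110296, + strand): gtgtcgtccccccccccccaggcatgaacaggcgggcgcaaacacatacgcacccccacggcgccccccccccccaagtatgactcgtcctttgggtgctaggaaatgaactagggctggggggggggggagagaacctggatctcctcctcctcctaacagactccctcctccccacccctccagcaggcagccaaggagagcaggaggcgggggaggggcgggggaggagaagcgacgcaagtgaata
Lef1 start 4 (chr3:131156044-131156293, + strand): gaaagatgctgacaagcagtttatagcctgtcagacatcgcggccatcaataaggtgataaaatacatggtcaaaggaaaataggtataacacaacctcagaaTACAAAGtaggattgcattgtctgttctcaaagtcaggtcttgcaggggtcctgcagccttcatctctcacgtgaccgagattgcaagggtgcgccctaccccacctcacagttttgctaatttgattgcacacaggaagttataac
RefSeq promoter windows were found for 8 of the 10 genes, all but Sfrp1 and Dkk3, with 14 windows between them. The Axin2 window and the first Lef1 window held none of the 4 strings and had 69.2% and 66.4% G and C, against a median of 52.4% over all windows. A match stood in 2 of the 14 windows: TACAAAG, 147 bases before Lef1 start 4, which lies inside the gene, and CTTTGTT, 14 bases before an internal start of Tcf7l2. Of all 32851 windows, 14.8% held a match. A match is a string of letters and not a measured site.

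Tcf7 encodes the Tcf/Lef factor also known as Tcf1, with a prominent role in T cells. No transcript of the deposited table was matched to it, so its position is not given. Tcf7 was at 3.71, 3.84 and 3.52 CPM in E15.5, at 11.07, 9.65 and 10.96 CPM in P1, at 9.44, 10.2 and 10.4 CPM in P7, at 15.3, 13.8 and 13.4 CPM in P14, and at 1.43, 1.49 and 1.32 CPM in MB. Replicates were close to each other, and E15.5, P1 with P7, P14 and MB formed separate levels. Tcf7 was 7.04-fold lower in MB than in P7 (log2 -2.82, SE 0.20, FDR 1.04e-07) and 9.98-fold lower than in P14 (log2 -3.32, SE 0.21, FDR 2.91e-08). It rose 2.87-fold from E15.5 to P1 (log2 1.52, SE 0.19, FDR 2.20e-05), or by 1.49 on the log2 scale without the libraries that stood apart (FDR 0.000811). These calls held in every alternative run. The step from P7 to P14 had no overlap between libraries but was not called (log2 0.50, SE 0.18, FDR 0.0896).

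Lef1 and Tcf7 are also expressed in brain endothelium, where Wnt signalling maintains the blood-brain barrier, so their levels are given beside endothelial markers. Tcf7 was lowest in E15.5 and MB, the groups in which the 6 endothelial markers summed to 16.3 to 37.2 CPM over both, and highest in P14, where they summed to 698 to 727 CPM. From P1 to P7 the sums went from 366 to 565 CPM down to 273 to 333 CPM. Tcf7 was at 9.65 to 11.07 CPM in P1 and at 9.44 to 10.4 CPM in P7, and was not called (log2 -0.08, FDR 0.857). Lef1 was, like the markers, lower in P7 than in P1 and P14. In E15.5, endothelial sums were 16.3 to 36.3 CPM. Lef1 was there at 23.1 CPM in replicate 1, which stood apart, and at 14.9 and 8.93 CPM in replicates 2 and 3. In MB, Lef1 was at 0.440 to 0.801 CPM with sums of 25.5 to 37.2 CPM. Dkk3 was at 25.0 to 28.5 CPM in E15.5 at such sums. A list of 7 pericyte and meningeal fibroblast markers had a like pattern, at 17.7 to 37.2 CPM in E15.5, 313 to 935 CPM from P1 to P14 and 19.5 to 31.7 CPM in MB. None of the endothelial markers was at 0 in a group, and the part of these cells in the differences of Lef1, Tcf7 and Dkk3 was not tested.

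**Figure D3:**
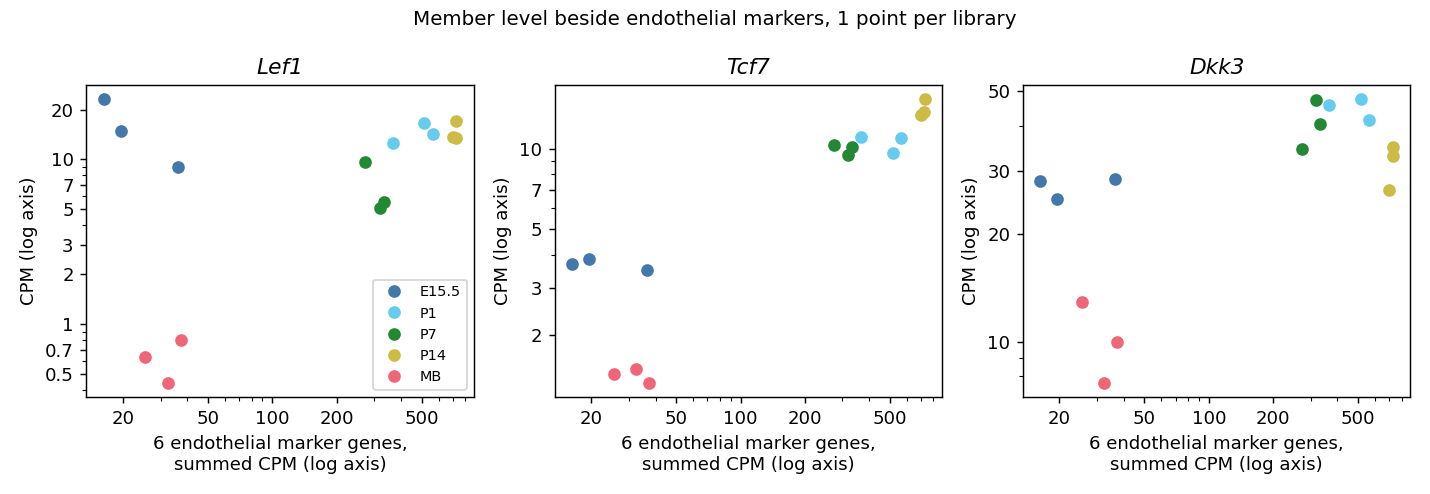
Level of Lef1, Tcf7 and Dkk3 in CPM against the summed CPM of 6 endothelial markers, both on log axes, with 1 point per library coloured by group. E15.5 and MB share the low end of the marker axis, at 16.3 to 37.2 CPM. There Lef1 was at 8.93 to 23.1 CPM in E15.5, highest in replicate 1, which stood apart, and at 0.440 to 0.801 CPM in MB. Tcf7 was at 3.52 to 3.84 CPM in E15.5 and 1.32 to 1.49 CPM in MB. Dkk3 was at 25.0 to 28.5 CPM in E15.5 and 7.67 to 12.9 CPM in MB. The part of endothelial cells was not tested.

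Tcf7l1 encodes the family member known as Tcf3, which acts mainly as a repressor. The Tcf7l1 transcript lies on chromosome 6 (72576372 to 72739248, - strand, mm9). Tcf7l1 was at 12.95, 9.77 and 8.77 CPM in E15.5, at 13.65, 13.96 and 12.77 CPM in P1, at 15.3, 15.1 and 19.5 CPM in P7, at 14.7, 10.3 and 10.7 CPM in P14, and at 6.39, 11.4 and 10.1 CPM in MB. P7 was above all other groups without overlap, and MB overlapped E15.5 and P14. It was 1.79-fold lower in MB than in P7 (log2 -0.84, SE 0.25, FDR 0.0160), which was not called without P7 replicate 3 (FDR 0.0647) or in a fit of those 2 groups alone (FDR 0.0833). Against P14 it was not called (log2 -0.36, SE 0.25, FDR 0.245).

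Tcf7l2, also known as Tcf4, encodes a factor that can activate or repress. The Tcf7l2 transcript lies on chromosome 19 (55816300 to 56008144, + strand, mm9). Tcf7l2 was at 81.7, 7.43 and 9.01 CPM in E15.5, at 19.7, 18.2 and 19.1 CPM in P1, at 12.8, 10.2 and 16.3 CPM in P7, at 20.5, 11.8 and 15.6 CPM in P14, and at 4.48, 4.18 and 5.36 CPM in MB. The MB libraries were below all 12 others, and E15.5 replicate 1 was far above all of them. With that library, P1 and E15.5 were not called different and the change was negative (log2 -0.79, SE 0.63, FDR 0.321). Without it and P1 replicate 3, Tcf7l2 was higher in P1 (log2 1.2, FDR 0.0113). The decrease in MB was 3.41-fold against P14 (log2 -1.77, SE 0.65, FDR 0.0340) and 2.79-fold against P7, which was not called (log2 -1.48, SE 0.65, FDR 0.0915). Without the libraries that stood apart both were called (FDR 0.000117 and 0.000699). Those libraries are in neither comparison, but all groups share an estimate of the spread, so they bear on the FDR. The log2 changes stayed at -1.77 and -1.48. The change against P7 was also called in a fit of MB and P7 alone (log2 -1.45, FDR 0.00797) and with DESeq2 (log2 -1.46, FDR 0.0411). It was not called in the other 12 of 15 alternatives. Across all 15 the log2 change against P7 lay between -1.64 and -0.531, with FDR up to 0.694. With E15.5 replicate 1 and P1 replicate 3 kept, the call against P14 was lost when P14 replicate 1, P14 replicate 3 or any MB library was left out.

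The Tcf/Lef family was then compared within each library per kilobase of transcript, as a description. The 4 genes summed to 18.0 ± 0.208 CPM per kilobase in P1, 15 ± 2.38 in P7, 18.1 ± 2.87 in P14 and 5.06 ± 0.855 in MB (mean ± SD, n = 3). In E15.5 the sums were 34.4, 11 and 9.30 CPM per kilobase in replicates 1 to 3, the first through Tcf7l2. Lef1 and Tcf7 together held 46.8 ± 1.5% of the family sum in P1, 40.0 ± 2.17% in P7, 55.1 ± 3.57% in P14 and 15.2 ± 3.03% in MB. In E15.5 replicates 1 to 3 they held 23.7%, 52.8% and 42.9%, and the lowest of these was near the highest of MB, 18.7%. The share of Tcf7l1 was 24.6 ± 0.987% in P1, 36.6 ± 0.5% in P7, 21.5 ± 0.929% in P14 and 59.4 ± 7.61% in MB. It was 12.4%, 29.1% and 31% in E15.5 replicates 1 to 3. MB thus held a smaller family sum than any precursor library, 4.07 to 5.59 CPM per kilobase, and Tcf7l1 made up 51.6% to 66.8% of it. The share of Tcf7l1 was larger in MB while its level was not higher, at 3.05 CPM per kilobase in MB and 5.46 in P7.

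**Figure D4:**
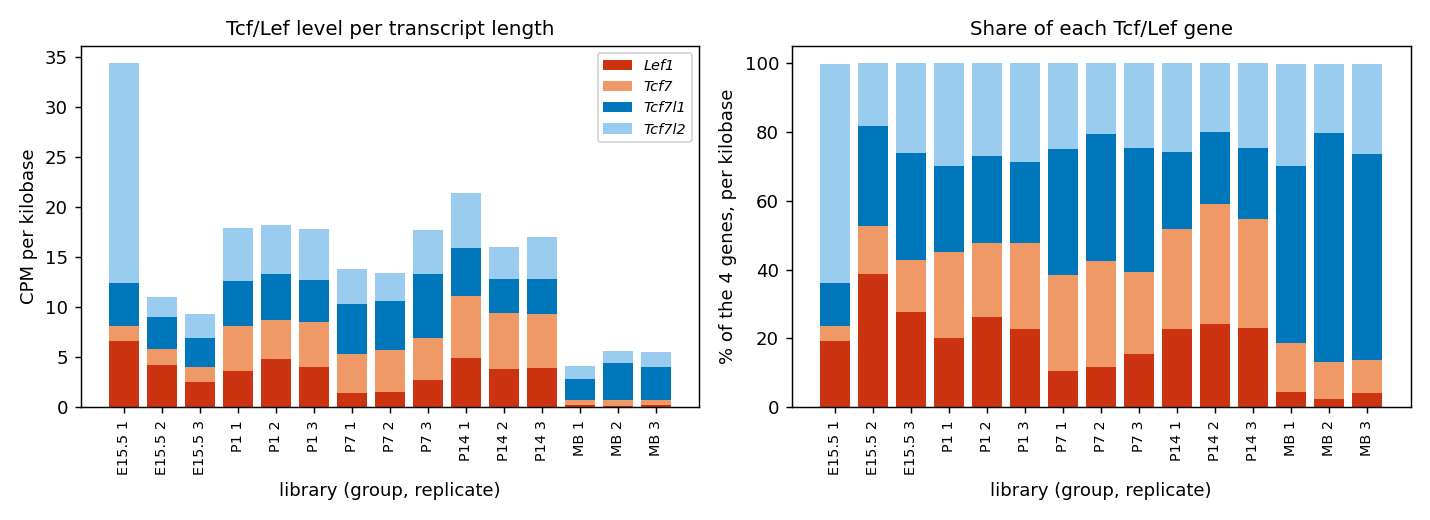
Left, summed level of Lef1, Tcf7, Tcf7l1 and Tcf7l2 in each library in CPM per kilobase of transcript. Right, the share of each gene in that sum in percent. Tcf7l1 takes 51.6% to 66.8% of the sum in MB, and Tcf7l2 takes 63.9% in E15.5 replicate 1.

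Ctnnb1 encodes β-catenin, the pathway's signal carrier and a component of cell junctions, and its activity is set mainly by protein stability. The Ctnnb1 transcript lies on chromosome 9 (120842518 to 120869625, + strand, mm9). Ctnnb1 was at 1220, 1113 and 1387 CPM in E15.5, at 1249, 1302 and 952.7 CPM in P1, at 916, 1008 and 815 CPM in P7, at 751, 806 and 813 CPM in P14, and at 1273, 1280 and 1040 CPM in MB. E15.5, P1 and MB overlapped, while P7 and P14 were lower than E15.5 and MB in every library. Ctnnb1 was 1.52-fold higher in MB than in P14 (log2 0.60, SE 0.18, FDR 0.0124), a call kept in each alternative. Against P7 it was not called (log2 0.39, SE 0.18, FDR 0.111), although DESeq2 called it (FDR 0.0355). Between P1 and P14 the log2 change was -0.56 (FDR 0.0635), and -0.69 without the libraries that stood apart (FDR 0.0316). Per kilobase, Ctnnb1 was at 218 to 342 CPM on average in the 5 groups, far above the Tcf/Lef genes and near Sfrp1 in MB, which was at 381 CPM per kilobase.

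To place these genes in the pathway, 91 other Wnt genes in 8 lists by role were tested, of which 90 were in the gene tables and 82 passed the filter. Between MB and P7, 14 were higher and 27 lower in MB, 50% of those tested against 34.5% of all genes. The median log2 change was -0.355, against 0.019 over all genes. It was -0.30 over 80 of the 82 when genes at 0 in a group are set at a floor of 3 counts over the group. The other 2 were at or under that floor in both groups. Of 16 Wnt ligands, 1 was higher and 10 were lower. Wnt4 was the ligand that rose, from 3.68 ± 0.21 to 36.0 ± 24.2 CPM (log2 3.29, SE 0.44, FDR 3.67e-05). Wnt5a, a mainly non-canonical ligand, was the most abundant to fall, from 34.2 CPM in P7 to 3.96 CPM in MB. Of 15 receptors and co-receptors, 4 were higher and 5 lower. Fzd7 was higher in MB (311 against 62.8 CPM) and Fzd8 lower, at 0.550 ± 0.17 against 11.03 ± 1.46 CPM (log2 -4.29, FDR 2.90e-08).

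Of the 7 other secreted inhibitors tested, 1 was higher and 2 were lower in MB than in P7. Draxin, an axon guidance protein that also binds Lrp6, was the higher one at 1007 against 386.7 CPM, and Sostdc1 was lower at 0.315 ± 0.24 against 5.67 ± 7.30 CPM (FDR 0.0271). Sostdc1 varied widely within P7. The R-spondin arm, which raises Frizzled at the surface, had 3 of 6 genes lower and the other 3 not called. The destruction complex and Dishevelled list had 1 higher and 1 lower of 13, and the nuclear cofactors 2 higher and 1 lower of 13, with median log2 changes of -0.04 and -0.13.

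Feedback genes and targets of the pathway did not move as a block. Of 10 tested, 5 were higher and 4 lower in MB than in P7, with a median log2 change of 0.50. Rnf43, a ubiquitin ligase that removes Frizzled, rose from 4.50 ± 1.95 to 42.5 ± 14.97 CPM (log2 3.23, SE 0.48, FDR 9.41e-05). Myc rose from 22.3 ± 3.44 to 138 ± 86.2 CPM (log2 2.63, SE 0.40, FDR 0.000114), and Ccnd1, cyclin D1, from 237 to 941.7 CPM, both of which are also targets of other pathways. Notum, a secreted enzyme that removes the lipid of Wnt proteins, fell from 1.77 ± 0.20 to 0.0725 ± 0.03 CPM (log2 -4.47, SE 0.50, FDR 6.89e-06), and Sp5 from 28.6 to 2.11 CPM. Nkd1 was higher (496.8 against 273.8 CPM) and its relative Nkd2 lower (1.53 against 5.36 CPM). Fzd7, Wnt5a, Draxin, Ccnd1, Sp5, Nkd1 and Nkd2 were chosen for mention after their values were seen.

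**Figure D5:**
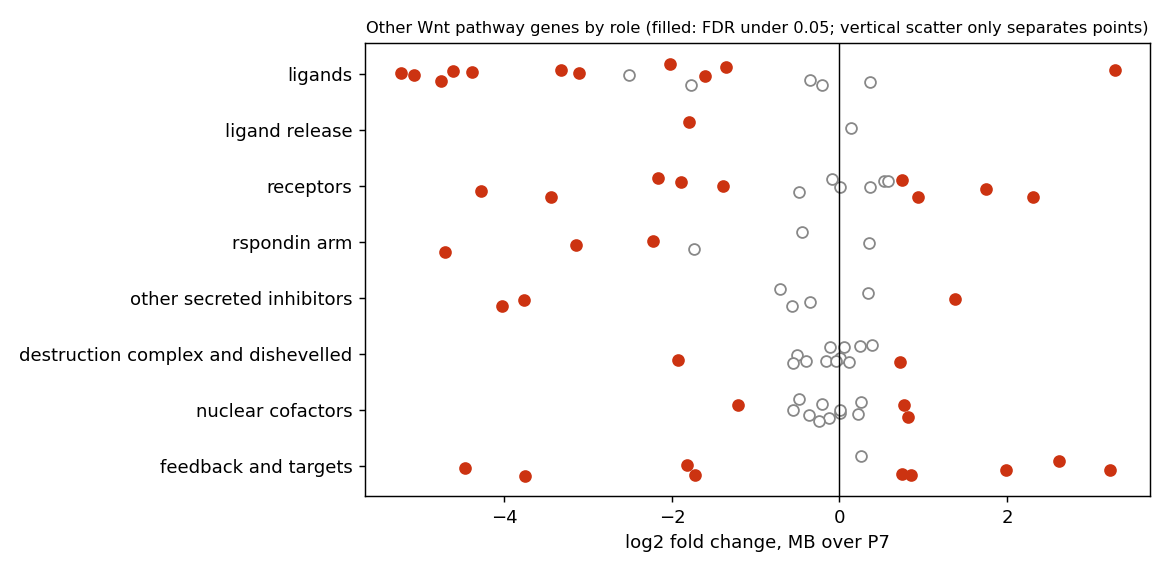
Fitted log2 fold change of MB over P7 for the 82 other Wnt pathway genes tested, in 8 lists by role, with filled points at FDR under 0.05. The vertical scatter only separates points, and fitted values of genes near 0 counts in MB depend on the prior count. Most called ligands lie to the left, while feedback genes and targets lie on both sides of 0.

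Against P14, 16 of the 82 genes were higher and 31 lower in MB (57.3%, against 50% of all genes), and the largest changes were an increase of Rnf43 (log2 3.56, FDR 2.83e-05) and decreases of Sostdc1 (log2 -7.03, FDR 0.000792), Notum (log2 -6.72, FDR 1.27e-07) and Lgr6, an R-spondin receptor (log2 -4.61, FDR 6.79e-06), where genes averaged 1 CPM or more over all libraries. Myc (log2 3.40) and Wnt4 (log2 3.30) were the other largest increases. Marker sums of several other cell types were lower in MB as well. For 6 choroid plexus and ependymal markers they were 5130 to 8500 CPM in P14 and 34.9 to 258 CPM in MB. For the endothelial markers they were 698 to 727 CPM and 25.5 to 37.2 CPM. The sums of 6 microglia and macrophage markers were not lower, at 111 to 158 CPM in P14 and 133 to 374 CPM in MB. The choroid plexus sums ran from 59.7 to 2010 CPM within P7, where Sostdc1 also varied widely. The part of these cells in the decreases was not tested. Between E15.5 and P1, 26 were higher and 19 lower in P1 (54.9%, against 46.3%). Without the libraries that stood apart, 32 were called in place of 45. The changes that follow use all libraries. Notum (log2 5.42, FDR 2.27e-06), Lgr6 (log2 4.98, FDR 1.47e-05) and Fzd6 (log2 4.53, FDR 1.49e-06) increased most, and Nkd2 (log2 -1.89, FDR 0.000315), Wnt7b (log2 -1.82, FDR 0.000701) and Fzd10 (log2 -1.26, FDR 0.0110) decreased most among genes above the same limit. The summed levels of endothelial and pericyte markers were also higher in P1 than in E15.5, and their part in these differences was not tested.

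After birth, the number of the 82 genes called depended on the fit. Between P1 and P7, 5 were called, all lower in P7 (6.10%, against 3.15% of all genes), and among those averaging 1 CPM or more these included Fzd10 (log2 -1.56, FDR 0.0354), Rspo2 (log2 -1.55, FDR 0.0196) and Tnfrsf19 (log2 -1.03, FDR 0.0261). The number was 13 with DESeq2, 0 with only the groups compared, 7 without the libraries that stood apart and 0 to 9 with any 1 library left out. Between P7 and P14, 6 were higher and 1 lower (8.54%, against 10.3%), with Lgr6 (log2 2.38), Notum (log2 2.25) and the secreted inhibitor Frzb (log2 1.59) higher and Ccnd1 (log2 -1.16) lower. The number called, 7 in all, was 14 with DESeq2, 27 with only the groups compared, 1 with the counting set as a term, 12 without the libraries that stood apart and 2 to 4 without P7 replicate 2 or any P14 library. The endothelial sums were higher in P14 than in P7 too. Between P1 and P14, 4 were higher and 6 lower (12.2%, against 8.94%), with Notum (log2 1.503), Tle2 (log2 1.46) and Porcn, which attaches the lipid to Wnt proteins (log2 1.25), higher and Fzd10 (log2 -1.88), Rspo2 (log2 -1.88) and Ccnd1 (log2 -1.70) lower. The number called, 10 in all, was 20 with only the groups compared and 27 in libraries counted alike. It was 13 without the libraries that stood apart, 16 without P1 replicate 3 and 1 to 4 without any other single P1 or P14 library.

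For each of the 10 genes the most similar genes were sought by Pearson's r of log2 CPM over the 15 libraries, among genes that averaged 5 CPM or more. These r values are descriptions, since libraries of a group share their group and MB stands far from the rest. Sfrp1 was most like Prox1 and Spata2 (r = 0.982 for both), and Sfrp2 most like Syt13 (0.970) and Bcat1 (0.968). Dkk3 was most like Gucy1a1 (0.964) and Pgm5 (0.962), and Axin2 most like Cachd1 (0.946) and Sned1 (0.930). Lef1 was most like Cdon (0.978) and Ptpru (0.977), and Tcf7 most like Rbpms (0.988) and Egflam (0.983). Ctnnb1 was most like Ttc30a1 (0.973) and Rpp40 (0.947), and Tcf7l1 most like Vcan (0.884) and Rfx2 (0.880). Wif1, with its scattered replicates, reached 0.855 with Itm2c. Tcf7l2 had the weakest partners, Lef1 (0.786) and Rab36 (0.773), and the first of these is itself one of the 10 genes.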

How the data were processed

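Poly(A) RNA-seq libraries of granule neuron precursors and MB were analysed, 15 in all. The authors deposited raw read counts per gene, per start-site model and per transcript, not normalized. HTSeq, TopHat, StringTie, Trimmomatic and the build mm9 are named in the submitters' processing notes, without versions or roles here, and the strand setting is not given in the sources used here. Of a library's records 39.5% to 55.4% were in genes, and lines that name no gene were kept out. The gene table was the main one. With edgeR 4.0.16 in R 4.3.3, filterByExpr (minimum count 10, minimum total 15) left 15259 genes, libraries were scaled by TMM, and the quasi-likelihood fit took all 15 libraries with 1 coefficient per group (10 residual degrees of freedom). P-values were adjusted by Benjamini-Hochberg over all genes tested, with a threshold of 0.05. CPM and log2 CPM (prior count 2) were computed from the counts, and levels per kilobase use transcript lengths from GENCODE vM21. Symbols matched 20358 of 21889 genes. The gene tables fall into sets made differently: Tsnax had at most 0.273% of its transcript-table counts in 6 libraries and at least 92.4% in the other 9. The 6 were all of P7, E15.5 replicates 1 and 3 and MB replicate 1. The 9 matched members had no such gap, with at least 82.1% in each library. Alternatives were DESeq2 1.42.0 and its scaling, other filters, only the groups compared, the replicate block, the other tables, the counting set, and each library left out. The 10 genes are all described. Other Wnt genes are named if called, with a mean of at least 1 CPM, and among the 3 largest changes in a direction, and similar genes as the 2 with the highest r, of which 1 is not reported here. The genes and lists were chosen with earlier results of these data known. The fit was tested on simulated data.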

Additional observations from a re-analysis of the deposited data

How the results depend on the processing

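Replicate numbers did not pair the libraries: in 0 comparisons did the deviations of every same-numbered pair correlate over 0.1, and 4 of 15 libraries correlated best, outside their group, with their own number. Of 546 values recomputed under other settings, 499 kept their direction and their side of the threshold, and of 360 with 1 library left out, 311 did. The calls of Sfrp1, Sfrp2, Dkk3, Lef1 and Tcf7 in MB against both P7 and P14 kept both in each. Numbers called moved between the postnatal ages. For P7 against P1, members called were 2 with DESeq2, 0 with only the groups compared, 0 with the counting set as a term, 2 without the libraries that stood apart (chosen after seeing the data) and 0 to 2 with 1 library left out. Genes called there, 480 at first, were 1209, 203, 197 and, with the replicate block, 248, and 9 to 888 with 1 library left out. For P14 against P7, members called were 4 with only the groups compared, 1 with the replicate block, 1 of 7 in the start-site table, 0 with the set term and 0 to 1 with 1 library left out. Genes called, 1574 at first, were 2436 with DESeq2, 3838 with only the groups compared, 295 with the set term and 125 to 1077 with 1 library left out. For P14 against P1, members called were 4 with only the groups compared, 1 with the replicate block, 1 of 9 in the transcript table, 4 in 1 counting set and 1 to 3 with 1 library left out. Genes called, 1364 at first, were 2394 with DESeq2, 4089 with only the groups compared, 4714 in 1 counting set, 2452 without the libraries that stood apart and 154 to 2714 with 1 library left out. The direction of uncalled log2 changes turned in some cases. For P1 against E15.5, Sfrp2 was 0.0772 in the start-site table, 0.35 in 1 counting set, 0.31 without the libraries that stood apart and -0.55 to 0.17 with 1 library left out. Tcf7l2 was 1.35 in 1 set, 0.32 with the set term, 1.2 without the libraries that stood apart and -1.28 to 1.2 with 1 library left out. Ctnnb1 was 0.0637, 0.0378, 0.0273 and -0.172 to 0.0398 in the same order. Lef1 was 0.29 without the libraries that stood apart and -0.45 to 0.28 with 1 library left out. For P7 against P1 with the set term, Wif1 was 0.0149 and Axin2 0.35. For P14 against P7, Axin2 was -0.132 to 0.081 with 1 library left out. For P14 against P1, Lef1 was -0.00557 in the transcript table and -0.0943 to 0.139 with 1 library left out. For MB against P7, Wif1 was -0.16 with the set term and -1.10 to 0.84 with 1 library left out. The replicate block ended the calls of Sfrp1 in P14 against P1 (FDR 0.0568), Lef1 in P14 against P7 (FDR 0.0659) and Axin2 in MB against P7 (FDR 0.0549) and P14 (FDR 0.0556), and no other member's. Other Wnt genes called in MB were 23 against P7 and 29 against P14 in the start-site table, which holds fewer of them. The causes were not tested. P7 lies wholly in 1 counting set, so its comparisons with P1 and P14 could not be run within a set. Depth limits Lef1 in MB, at 16 to 20 counts.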

Other observations

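Tcf7l2 stood out in E15.5 replicate 1 more than any other gene. By the excess of log2(CPM + 1) over the higher of the other E15.5 libraries, Tcf7l2 ranked first (3.05), followed by the transcription factor genes Zfhx3 (2.58, 71.4 against 11.1 CPM), Lhx2 (2.26, 95.6 against 19.1 CPM), Pou4f1 (2.11, 24.1 against 4.81 CPM) and Tfap2d (2.00, 20.6 against 4.39 CPM). Lhx9 was at 120 against 34.3 CPM. These genes were chosen after their values were seen. The summed level of 6 midbrain and isthmus markers was 243 CPM in that library and 209 CPM in the lowest E15.5 library, and 7 granule precursor markers summed to 3380 CPM there against 2490 and 3750 CPM in the others. Of the 243 CPM, En2 held 145 CPM and En1 81.2 CPM. The midbrain and isthmus list holds none of the genes ranked above, and the source of their excess was not tested.

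Wif1 ranked 9 by the same measure in MB replicate 2 (excess 1.96, 16.7 against 3.56 CPM). The ranking was led by Crabp1 (4.07, 89.7 against 4.4 CPM), Col5a2 (3.30, 17.5 against 0.881 CPM) and Slc15a2 (2.89, 24.3 against 2.40 CPM). Ttr, a choroid plexus marker, was at 161 against 21.6 CPM, and Bmp5 at 22.0 against 2.48 CPM.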
